A study of Homo sapiens with 4 samples.

Results

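The mRNAs described here are those of the CEP genes, which code for centrosomal proteins, and of the IFT genes, which code for subunits of the intraflagellar transport trains. They were taken by symbol: protein-coding genes of GENCODE release 44 named CEP or IFT followed by digits, 53 genes (38 CEP and 15 IFT) of 20046 protein-coding genes. Peaks belonged to them when the summit lay in an exon of such a gene, which held for 201 of 44622 peaks in replicate 1 and 216 of 42723 peaks in replicate 2, a mean of 208.5 ± 10.6 (SD, n = 2). The samples came from OE-19, a human line established from an adenocarcinoma of the esophagogastric junction and grown untreated in serum-containing medium. The labels mention UV fixation before lysis, a step that the RIP method of the study does not describe. RNA immunoprecipitation with an anti-IGF2BP3 antibody gave 2 replicates, and 2 further samples were input RNA, whose own values were not analysed here. The study calls its RIP-seq replicates biological but does not state whether they came from separate cultures, so their spread may be partly technical. No group differs in genotype or treatment, and the question of the design is which RNAs, and where along them, were enriched with IGF2BP3.

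IGF2BP3 is an oncofetal RNA-binding protein that binds mRNAs, among them mRNAs carrying N6-methyladenosine (m6A), and affects their stability and translation. The centrosome is built from a pair of centrioles and the pericentriolar material around them, which nucleates microtubules and organises the mitotic spindle. In cells that leave the cycle, the mother centriole docks at the membrane through its distal appendages and templates the primary cilium. Intraflagellar transport trains of the IFT-B and IFT-A complexes carry cargo along the cilium, with kinesin-2 as the outward motor and cytoplasmic dynein 2 as the return motor. These gene products share a cellular structure but not a protein family, and a CEP symbol says only that the protein was found at the centrosome.

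A peak is a stretch of the genome in which the peak caller of the authors found more RIP signal than its local background, and its fold enrichment is the deposited ratio of the 2 at the summit. The q is the deposited p corrected for all positions tested. Both lists were long and permissive, with deposited −log10 p values from 2 upwards and a median −log10 q of 0, so a peak with a q of 1 has little support of its own. A gene with no peak may have little RNA in these cells, and the level of the RNA was not measured here. Of 6 epithelial marker genes, CDH1 had 4 exonic peaks in replicate 1 and 8 in replicate 2, while EPCAM, KRT8, KRT18, KRT19 and ERBB2 had 0 in both, as had VIM, PTPRC and PECAM1, so the lists do not serve to check the cell type.

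Several of the exon stretches under the peaks of these mRNAs are shown first, to give the sequence behind some of the peaks with the highest fold or the lowest q. Each is the union of the overlapping peaks of the replicates, clipped to the coding exon under them, read from hg38 on the strand of the mRNA. Capitals mark GGAC, the core of the usual m6A consensus, with a T before it where there is one. The first belongs to CEP350, exon 7, chr1:180003174-180003286 (plus strand), the only overlapping pair of coding peaks on these mRNAs with a q of at most 0.05 in both replicates. The second is CEP350 exon 29, chr1:180078469-180078639 (plus strand), which held the highest fold of any CEP or IFT peak. This stretch and the others were chosen after their values were seen, each as the pair with the highest mean fold among those of at most 300 nt in its gene with a q of at most 0.05 in 1 replicate. The others are CEP192 exon 37, chr18:13099476-13099581 (plus strand), CEP295 exon 19, chr11:93721322-93721412 (plus strand), and CEP57 exon 10, chr11:95829187-95829331 (plus strand).
CEP350 exon 7: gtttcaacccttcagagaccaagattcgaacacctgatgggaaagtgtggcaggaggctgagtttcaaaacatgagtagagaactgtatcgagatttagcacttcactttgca
CEP350 exon 29: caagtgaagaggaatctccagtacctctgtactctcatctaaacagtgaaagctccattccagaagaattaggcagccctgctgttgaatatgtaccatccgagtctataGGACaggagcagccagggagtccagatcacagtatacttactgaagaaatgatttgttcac
CEP192 exon 37: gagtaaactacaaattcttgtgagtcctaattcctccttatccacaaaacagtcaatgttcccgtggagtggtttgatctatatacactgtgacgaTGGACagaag
CEP295 exon 19: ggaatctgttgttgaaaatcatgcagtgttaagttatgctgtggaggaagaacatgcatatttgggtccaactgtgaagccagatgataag
CEP57 exon 10: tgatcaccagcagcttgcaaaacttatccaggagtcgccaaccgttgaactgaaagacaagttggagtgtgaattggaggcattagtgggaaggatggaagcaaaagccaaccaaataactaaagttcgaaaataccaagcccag

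The CEP350 exon 7 stretch had nearly the same fold in both replicates, 4.45 and 4.43, with q of 0.0427 and 0.0294. The CEP350 exon 29 stretch did not: its fold was 7.37 in replicate 1 (q 2.42e-06) and 2.45 in replicate 2 (q 1). For CEP192 exon 37 the folds were 4.10 and 5.59 (q 0.109 and 0.00107). All 5 stretches were taken from overlapping peaks, so their overlap was set by the choice. The folds of 3 of them differed by more than 1.5 times. All but CEP350 exon 7 were chosen with a q of at most 0.05 in 1 replicate only, which favours unequal folds. CEP295 exon 19 had folds of 5.88 and 3.47 (q 1.19e-05 and 1). CEP57 exon 10 had folds of 5.66 and 2.62 (q 0.00209 and 1). GGAC occurred once in the CEP350 exon 29 stretch and, as TGGAC, once in the CEP192 stretch, and in none of the other 3. The looser form of the m6A consensus, DRACH, occurred between 1 and 4 times in each stretch.

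In replicate 1, 29 of the 53 genes (54.7%) had an exonic peak, where 32.6% of all protein-coding genes had one. In replicate 2, 28 of 53 (52.8%) did, where 31.6% of all protein-coding genes did. In both replicates 25 did (47.2%), of 28.0% of all protein-coding genes. These 25 were 19 of the 38 CEP genes (50%) and 6 of the 15 IFT genes (40%). A further 7 genes (13.2%) had a peak in 1 replicate alone, and 21 (39.6%) had none in either. With q of at most 0.05 in at least 1 replicate the count was 9 of 53 (17%), of 10.3% of all protein-coding genes.

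The CEP and IFT mRNAs are longer than most, with a median of 4881 nt against 2885 nt over all protein-coding genes, and longer mRNAs hold a peak more often. Among mRNAs of up to 2000 nt, 2 of 6 CEP and IFT genes had a peak in both replicates, beside 6.48% of all genes of that length. From 2000 to 4000 nt it was 8 of 17, beside 25.5%. From 4000 to 6000 nt it was 5 of 15, beside 47.2%, so in this class the share was below that of all genes. From 6000 to 8000 nt it was 5 of 9, beside 57.2%, and above 8000 nt 5 of 6, beside 55.7%. Had each length class held peaks at the share of all genes in it, 20.3 of the 53 genes would have had peaks in both, where 25 did. Part of the distance from the background of 28.0% therefore went with length.

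**Figure D1:**
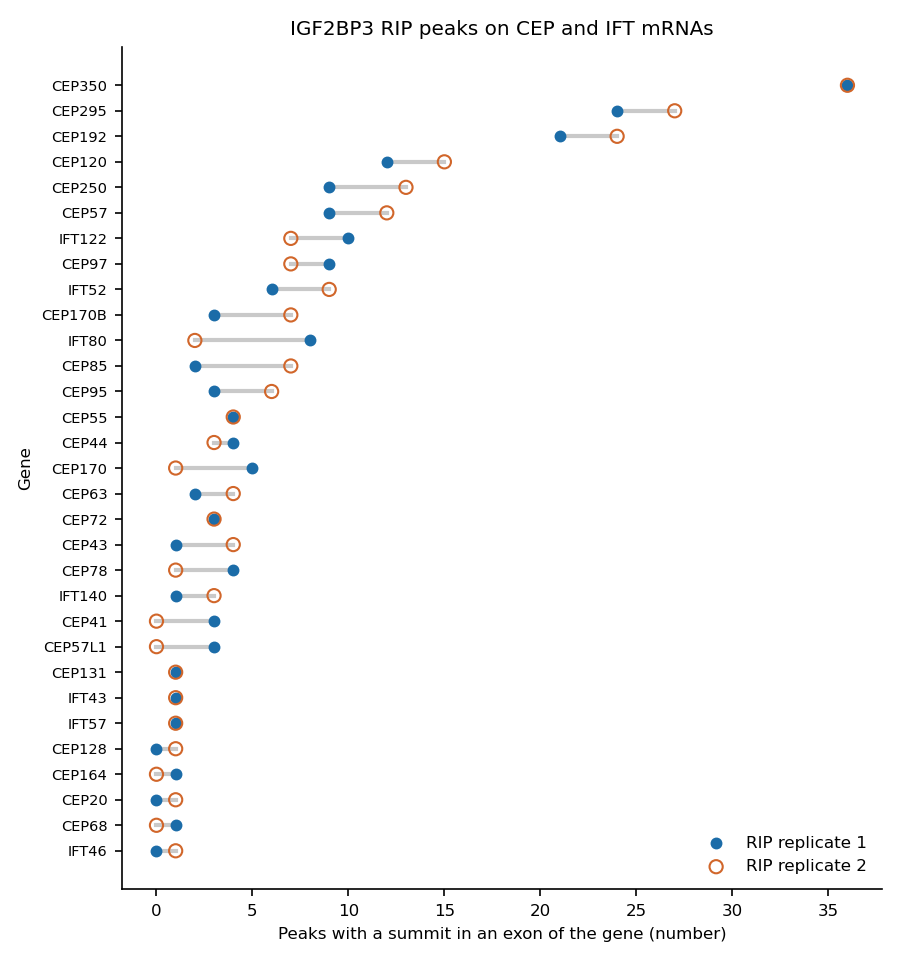
Number of exonic peaks (x axis) on 31 CEP and IFT genes (y axis) with a peak in either replicate. Filled points stand for RIP replicate 1 and open points for replicate 2. CEP350 had 36 peaks in each, CEP295 had 24 and 27, and the genes at the bottom had 1 peak in 1 replicate only.

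The peaks were concentrated on a few genes. CEP350, CEP295 and CEP192 held 81 of the 201 peaks of replicate 1 (40.3%) and 87 of the 216 of replicate 2 (40.3%). Over the 53 genes, the number of peaks in replicate 1 went with that in replicate 2 (Pearson's r 0.961, Spearman's rho 0.854), a description over genes that share both libraries and are not independent replicates. Over the 25 genes found in both, the rho was 0.762. The highest fold on each of these 25 genes also went together between the replicates (r 0.795 on the log2 scale, rho 0.752). Genes with many peaks in replicate 1 thus had many in replicate 2.

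Genes of centriole assembly and of the pericentriolar material were the largest group. Of 12, 8 had peaks in both replicates, 1 in replicate 1 alone and 3 in neither, with 86 and 99 peaks in all. CEP295, which is needed for a new centriole to become a centrosome, had 24 peaks in replicate 1 and 27 in replicate 2. In both replicates its summits in exons 24 and 25 also lay in an exon of ENSG00000279696, among them a replicate 1 peak with q 0.0118. The same held for its summit in exon 27 in replicate 2, and that in exon 29 in replicate 1 also lay in an exon of TAF1D. CEP192, the scaffold that brings Aurora A and the pericentriolar material to the centriole, had 21 and 24. CEP120, which centrioles need to elongate, had 12 and 15, and CEP57, an organiser of the pericentriolar material, had 9 and 12. All 4 mRNAs had somewhat more peaks in replicate 2 than in replicate 1. On CEP57, 3 summits of replicate 1 and 4 of replicate 2 also lay in an exon of MTMR2, and the lists carry no strand to separate them. The mRNA of CEP97, which caps the centriole together with CCP110, had 9 and 7 peaks, and that of CEP85, a partner of STIL, had 2 and 7. CEP44 had 4 and 3 peaks and CEP63, which recruits CEP152, had 2 and 4. All summits on CEP63 also lay in an exon of ENSG00000288700, from which they cannot be told apart. CEP57L1, a paralogue of CEP57, had 3 peaks in replicate 1 and 0 in replicate 2. CEP76, CEP135 and CEP152 had no peak.

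Among 9 genes of the appendages and of microtubule anchoring, CEP350 stood apart from the rest. CEP350 binds microtubules and helps to anchor them at the centrosome, and its mRNA had 36 peaks in each replicate, of 47 and 43 on the whole group. CEP170, a subdistal appendage protein, had 5 and 1 peaks. CEP43 had 1 and 4 and CEP78 4 and 1. None of the peaks on CEP170, CEP43 and CEP78 overlapped a peak of the other replicate. CEP164, a distal appendage protein that cilium formation needs, had 1 peak in replicate 1 alone, and CEP128 had 1 in replicate 2 alone. CEP19, CEP83 and CEP89 had none.

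Among genes of the ciliary gate, the centriolar satellites and the axoneme, peaks were fewer on those described here. CEP72, which localises to satellites, had 3 in each, 1 of which had a q of at most 0.05 (in replicate 2), but this peak, like 1 other of replicate 2 and 1 of replicate 1, lay outside the canonical transcript and also in an exon of TPPP. CEP131, a satellite protein, had 1 in each, and these did not overlap. CEP41 had 3 peaks in replicate 1 alone and CEP20 had 1 in replicate 2 alone. CEP126, CEP162 and CEP290 had no peak, although CEP290, the large protein of the ciliary transition zone, has an mRNA of 7824 nt.

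CEP250, the C-Nap1 protein that ties the centriole pair together, had 9 and 13 peaks, and CEP68 of the same linker had 1 in replicate 1 alone. CEP55, which brings the abscission machinery to the midbody at the end of cell division, had 4 and 4. Among the 6 genes not placed in a group, CEP170B had 3 and 7 and CEP95 had 3 and 6, while CEP70, CEP85L, CEP112 and CEP295NL had none.

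The 15 IFT genes were read by complex, where 28.0% of all protein-coding genes had peaks in both replicates. All 3 genes of IFT-A, the complex of return transport, had peaks in both replicates: IFT122 had 10 and 7, IFT140 1 and 3, and IFT43 1 and 1. Of the 8 genes of the IFT-B core, IFT52 alone had peaks in both replicates, with 6 and 9. IFT46 had 1 peak in replicate 2 (fold 1.88, q 1), and IFT22, IFT25, IFT27, IFT74, IFT81 and IFT88 had none. Of the 4 peripheral IFT-B genes, IFT80 had 8 and 2 peaks, IFT57 had 1 and 1, and IFT20 and IFT172 had none. The IFT-B core mRNAs are short, with a median of 2302 nt against 4075 nt for IFT-A. Of all genes, 25.5% had peaks in both replicates from 2000 to 4000 nt, and 47.2% from 4000 to 6000 nt. Of 3 IFT-A genes with other names, 1 had peaks in both. A difference between the complexes was not tested, and the numbers of genes are small.

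Some IFT peaks were weak or ambiguous. Both IFT43 peaks (fold 3.91 with q 0.0211 in replicate 1, fold 3.28 with q 0.108 in replicate 2) lay in an exon outside the canonical transcript and also in an exon of TTLL5, so they may belong to either gene. Of the IFT80 peaks, 5 in replicate 1 and both in replicate 2 also lay in ENSG00000248710, a gene that spans the same exons, and no exonic IFT80 peak of replicate 1 overlapped one of replicate 2. On IFT140 no peak overlapped between the replicates, and the highest fold was 2.56 and 2.51. On IFT57 the single peaks of the replicates overlapped, 49 and 40 nt before the stop codon by their summits, with folds of 3.10 and 2.36. On IFT122, 2 peaks of each replicate overlapped, in exons 14 and 29, and the strongest peak, in exon 28 (fold 3.91, q 0.0211 in replicate 1), had none opposite it. In each replicate 1 other IFT122 peak lay outside the canonical transcript and also in an exon of MBD4, and these did not overlap. IFT52 was the IFT gene whose peaks recurred most, with 5 of 6 peaks of replicate 1 overlapping 5 of 9 of replicate 2, in exons 1, 8, 10, 11 and 13.

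Genes of the same structures with other names gave a share close to that of the CEP and IFT genes. Of 75 such genes, 36 (48%) had exonic peaks in both replicates, where 28.0% of all protein-coding genes did, 12 in 1 alone and 27 in neither. At the share of all genes in each length class, 27.7 of the 75 would have had peaks in both. In centriole assembly it was 8 of 13, STIL having 15 peaks in each replicate and PLK4, the kinase that starts duplication, 11 and 4. In the pericentriolar material and linker it was 7 of 12, with 13 and 23 peaks on AKAP9 and 20 and 17 on TUBGCP4, but 0 and 2 on PCNT. Among satellite genes it was 4 of 5, PCM1 having 24 and 23. In the appendages it was 5 of 8. Among ciliary genes it was 4 of 12 in the ciliary gate, 3 of 9 in the BBSome, 3 of 8 among the IFT motors, 1 of 3 among IFT-A subunits of other names and 1 of 5 among those of IFT-B, and differences between these groups were not tested. The dynein 2 heavy chain gene DYNC2H1 had none in either replicate.

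**Figure D2:**
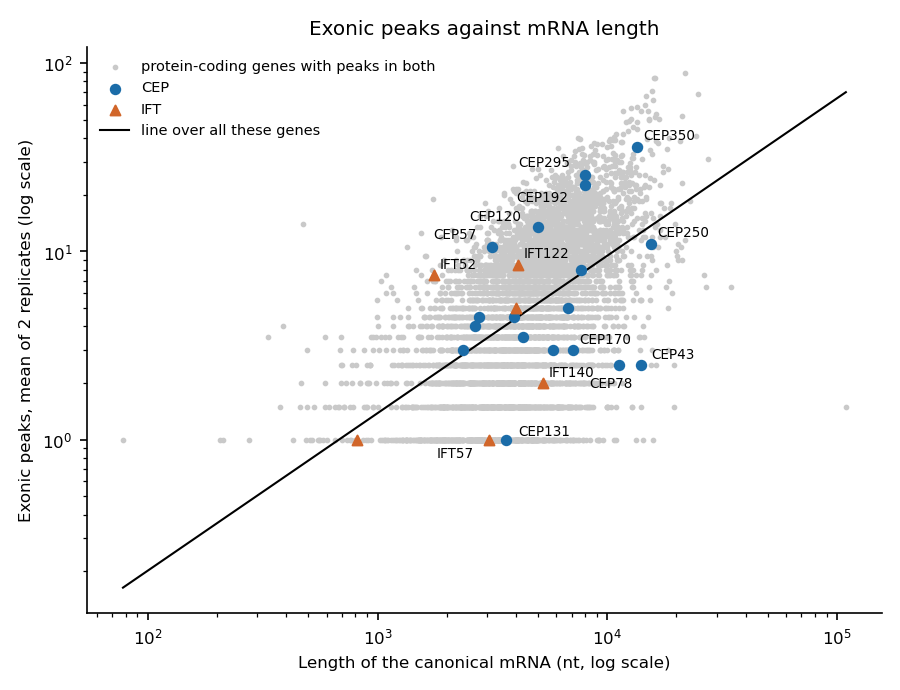
Mean exonic peaks of the 2 replicates (y axis, log scale) against the length of the canonical mRNA (x axis, nt, log scale) for protein-coding genes with a peak in both replicates (grey), CEP genes (blue) and IFT genes (orange). The line was fitted over all 5619 genes, and 14 of the 25 CEP and IFT genes, 24 of them drawn in colour, lay above it and 11 below.

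The number of peaks was then set against length. Over the 5619 protein-coding genes with peaks in both replicates, a line of log2 mean peaks on log2 mRNA length had a slope of 0.836. Of the 25 CEP and IFT genes, 14 lay above this line and 11 below it, where 53.1% of all genes lay above. Their median distance from it was 0.07 on the log2 scale, against 0.09 over all genes. The median was 1.23 peaks per kb of mRNA, against 1.15 over all genes found in both. Summits in exons outside the canonical mRNA are counted here, among them those of IFT43, whose own value is this median. As a group, the CEP and IFT mRNAs that had peaks thus held about as many as other mRNAs of their length.

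Single genes were spread widely around that median, from 0.179 to 4.28 peaks per kb. IFT52 was the highest, with 4.28 per kb on an mRNA of 1754 nt, 1.76 above the line on the log2 scale. CEP57 had 3.34 per kb, CEP295 3.18, CEP192 2.83, CEP120 2.70 and CEP350 2.68. The 3 genes nearest to CEP350 by this measure were CEP120, CEP192 and CEP295, over the 25 genes compared. CEP350 lay 1.57 above the line, CEP295 1.69, CEP57 1.54 and CEP192 1.52, and CEP120 lay 1.35 above. Of the 25, 5 were among the 10% of all genes that lay furthest above it. At the other end, CEP43 had 0.179 peaks per kb on 13956 nt, of which 12740 nt are 3′ UTR, and CEP78 had 0.223 on 11233 nt. CEP250, whose mRNA of 15434 nt was the longest of the set with peaks, had 0.713 per kb and lay 0.31 below the line.

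Counted within the coding sequence, the order changed. CEP57 was first, with 5.99 summits per kb of coding sequence, above 97% of all genes found in both, followed by IFT52 with 4.95, and CEP120 had 4.39. The CEP57 count includes summits that also lay in an exon of MTMR2. CEP350 had 3.26 and CEP295 3.20. The median was 1.97 over the 25 genes and also 1.97 over all genes found in both.

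**Figure D3:**
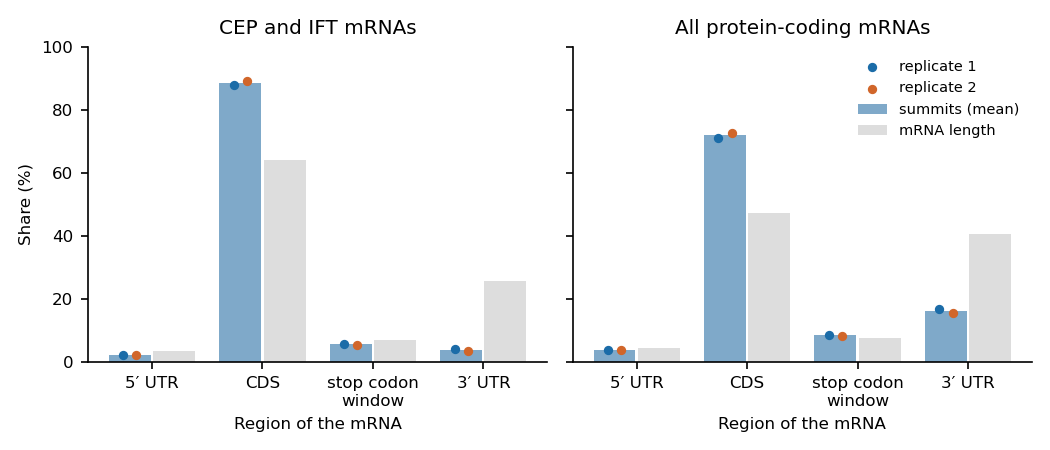
Share of summits (blue bars, mean of 2 replicates, with a point for each replicate) and of mRNA length (grey bars, each mRNA weighted by its number of summits) in each region of the mRNA, in percent, for CEP and IFT mRNAs (left) and all protein-coding mRNAs (right). The CEP and IFT summits fell on coding sequence in 88.6% of cases and on 3′ UTR in 3.80%.

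Summits on the CEP and IFT mRNAs lay mainly in coding sequence. Of the summits on exactly 1 canonical mRNA, 193 in replicate 1 and 203 in replicate 2, 170 and 181 lay in coding sequence further than 200 nt from the stop codon, 88.6% ± 0.763 (SD, n = 2), while such sequence made up 64.0% of the length of the mRNAs under them. Each mRNA counts in that length share as often as it has summits, so that a gene such as CEP350 weighs the same in both shares. Over all protein-coding genes the share was 72.0% ± 1.12, with 47.4% of the length. The ratio of the share to the length was therefore not higher on CEP and IFT mRNAs, 1.39 against 1.52. The 3′ UTR past the stop codon window held 8 and 7 summits, 3.80% ± 0.493, on 25.7% of the length, a ratio of 0.148 ± 0.00595. Over all genes that ratio was 0.394 ± 0.0204. In every region the ratios of both replicates lay below those over all genes. Both replicates read the same mRNAs, so their spread does not measure the spread between genes. Counts outside coding sequence are small, and no difference was tested. Of the 8 and 7 summits in 3′ UTRs, CEP350 held 5 and 4. The window around the stop codon, reaching 200 nt to each side, held 11 and 11 summits (5.56% ± 0.199, ratio 0.815), and over all genes the ratio was 1.11. The 5′ UTR held 4 summits in each replicate.

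The low count in 3′ UTRs held per kb as well. On the 25 genes found in both replicates, coding sequence as a whole held 2.18 ± 0.111 summits per kb (SD, n = 2), close to 2.24 ± 0.0228 over all genes found in both. The 3′ UTRs held 0.136 ± 0.0339 per kb, against 0.465 ± 0.0304. Without CEP350, the 3′ UTRs of the other genes held 2 summits in replicate 1 and 5 in replicate 2 on 58.9 kb, or 0.0595 ± 0.036 per kb. CEP350 itself had 5 summits in each replicate in its 3′ UTR of 3714 nt, 1 of which, in replicate 2, lay within the stop codon window. Of all 53 genes, 6 had a 3′ UTR summit past the window in either replicate, and CEP350 and CEP43 alone had one in both. Long 3′ UTRs were not lacking: of the 25 genes, 7 have one over 3000 nt, and 3 of these had a summit in it past the window, where 1578 of the 1876 protein-coding genes of that kind found in both had one (84.1%). CEP250, with 7654 nt of 3′ UTR, CEP97, with 5011 nt, and CEP78, with 8839 nt, had none there. The canonical 3′ UTR of the annotation may be longer than the one used in these cells, which was not tested.

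**Figure D4:**
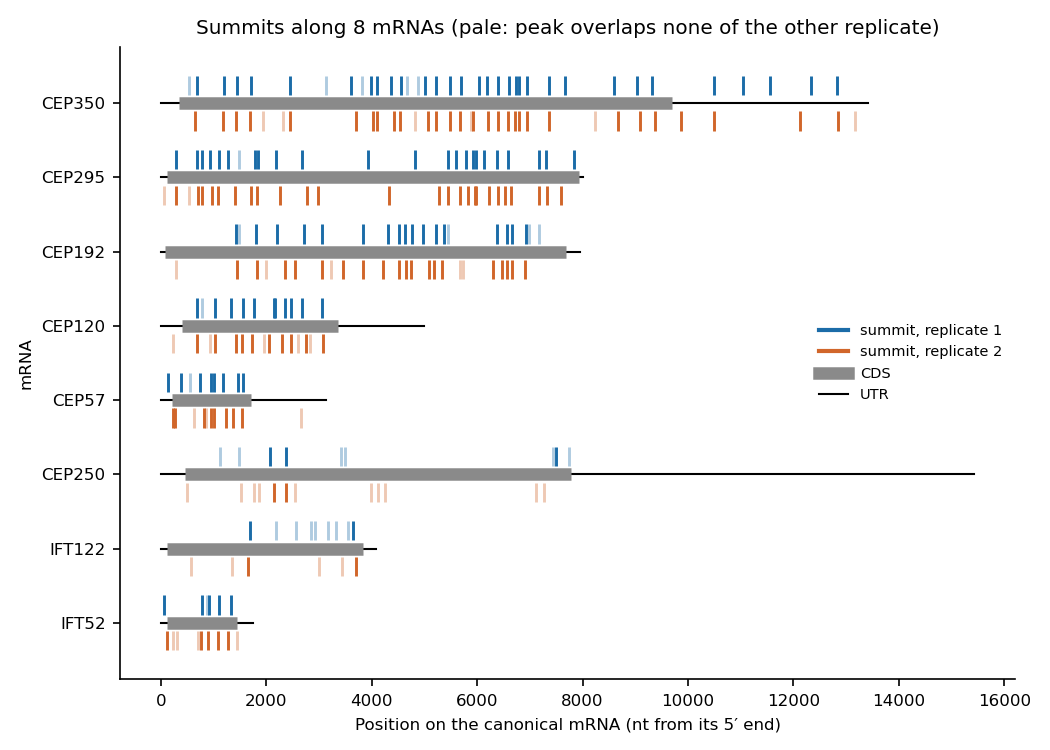
Position of each summit (x axis, nt from the 5′ end of the canonical mRNA) on 8 CEP and IFT mRNAs (y axis), with replicate 1 above and replicate 2 below each mRNA. Grey bars mark coding sequence and pale ticks mark peaks that overlap no peak of the other replicate. On CEP350, CEP295 and CEP192 most ticks recur in both replicates, and on CEP250 and IFT122 most do not.

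Along single mRNAs the peaks were spread over many exons rather than gathered in one place. A peak is a stretch of the genome, so signal that runs along a spliced mRNA can be cut into separate peaks at its introns. The same count of exons was not made over all genes. On CEP350, 29 of 38 exons held a summit in replicate 1 and 27 in replicate 2, 24 of them in both. On CEP295 it was 21 and 22 of 30 exons, 19 in both, and on CEP192 20 and 22 of 45, 15 in both. CEP120 had summits in 12 and 15 of 20 exons, 10 in both. On CEP57, the shortest of these mRNAs, each of the 11 exons held a summit in at least 1 replicate and 8 did in both. CEP250 differed, with 9 and 12 of 35 exons and 2 in both. When coding sequence was cut into 3 equal parts, the first, middle and last parts held 31.5%, 30.4% and 38.1% of the coding summits in replicate 1 and 36.0%, 29.6% and 34.4% in replicate 2. The 2 replicates thus gave no common order of the first and last parts.

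The exons under the coding summits were of ordinary length, with medians of 160 and 154 nt against 152 and 149 nt over all genes. Exons over 1000 nt held 10.5% of the coding summits in replicate 1 and 6.35% in replicate 2, while they make up 19.2% of the coding sequence of the 25 genes. Over all genes they held 10.0% and 8.99% of the coding summits on 22.4% of the coding sequence, so the share was below the length share there too. An example is exon 15 of CEP295, of 3505 nt, but its peaks are wide and each counts as 1 summit. In replicate 1 they were 447, 742, 901 and 762 bp wide, with folds of 5.58, 5.54, 4.34 and 4.83. A low count of summits on a long exon is therefore not a low enrichment. The summits lay a median of 50 and 43 nt from the nearer exon edge, and 55 (30.4%) and 66 (34.9%) of the coding peaks ran past an exon edge, against 42.4% and 40.6% over all genes.

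The CEP and IFT peaks were on the whole narrower than those of other mRNAs and of similar strength. Their median width was 93 bp in replicate 1 and 92.5 bp in replicate 2, against 115 and 109 bp over all protein-coding genes. Their median fold was 2.83 and 2.89 (2.86 ± 0.0377, SD, n = 2), against 2.95 and 2.93 (2.94 ± 0.0128). Of the peaks, 19 in replicate 1 (9.45%) and 9 in replicate 2 (4.17%) had a q of at most 0.05, where 10.2% and 7.81% of the peaks of all genes had one. A q of 1 was given to 62.7% and 68.5% of them. The highest folds were 7.37 on CEP350 in replicate 1 and 6.56 on CEP192 in replicate 2, where the highest over all genes were 11.7 and 10.2. The peaks with q of at most 0.05 lay on 9 genes, and CEP350 (5 and 3 such peaks), CEP295 (5 and 1) and CEP192 (3 and 2) had them in both replicates. CEP57 (3), CEP97 (1), IFT122 (1) and IFT43 (1, also in an exon of TTLL5) had them in replicate 1 only. CEP72 (1, also in an exon of TPPP) had them in replicate 2 only. Of these CEP57 peaks, those in exons 8 and 11 also lay in an exon of MTMR2. The CEP295 peak of this kind in exon 24 in replicate 1 also lay in an exon of ENSG00000279696.

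**Figure D5:**
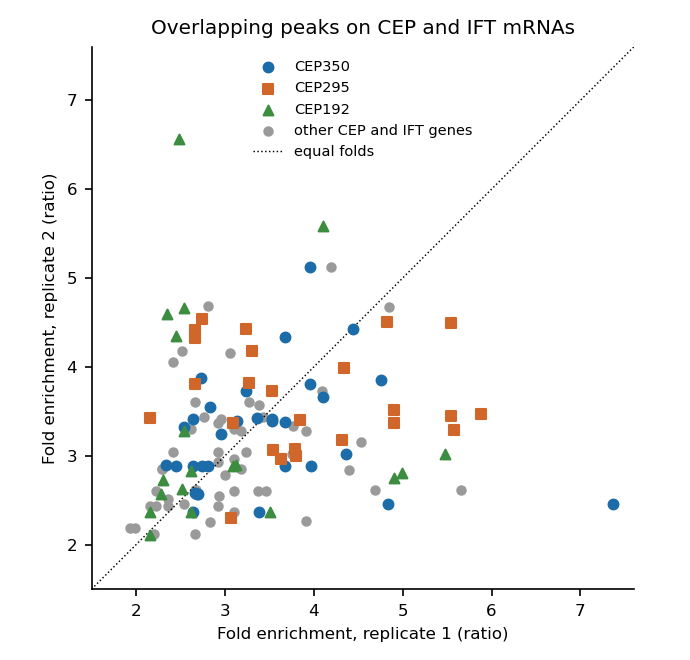
Fold enrichment (ratio) of each of 130 overlapping peak pairs on CEP and IFT mRNAs, in replicate 1 (x axis) and replicate 2 (y axis), with the line of equal folds dotted. The points scatter widely on both sides of the line, and CEP350, CEP295 and CEP192 hold 76 of them.

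Most peaks overlapped one of the other replicate, and the folds of overlapping peaks went together only weakly. Of the CEP and IFT peaks, 125 in replicate 1 (62.2%) and 130 in replicate 2 (60.2%) overlapped a peak of the other replicate, 61.2% ± 1.42 (SD, n = 2), against 61.0% and 64.8% over all genes. Of those with q of at most 0.05, 17 of 19 and 8 of 9 did. The 130 overlapping pairs lay on 18 genes, and 76 of them (58.5%) on CEP350, CEP295 and CEP192. Their summits were a median of 26.5 nt apart, and 64 pairs (49.2%) had them within 25 nt. This nearness is partly set by the overlap that a pair must have. Over the pairs, the log2 folds of the replicates had a Pearson's r of 0.233 and the folds a Spearman's rho of 0.285, again a description over peaks that share both libraries. Peaks that overlapped had a higher median fold than those that did not, 3.09 against 2.66 in replicate 1 and 3.11 against 2.59 in replicate 2. They were also wider, 103 against 77.5 bp and 120 against 69 bp, and a wider peak overlaps more readily. Without CEP350, CEP295 and CEP192, a set chosen after the values were seen, the overlapping share of the other genes was 44.6%.

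The share of peaks that recurred differed between the genes with many peaks. On CEP295, 23 of 24 peaks of replicate 1 and 25 of 27 of replicate 2 overlapped one of the other replicate, and on CEP350 31 and 29 of 36. On CEP192 it was 17 of 21 and 19 of 24, on CEP120 11 of 12 and 10 of 15, and on CEP57 8 of 9 and 9 of 12. On CEP97 it was 6 of 9 and 6 of 7. In contrast, 3 of 9 and 3 of 13 peaks recurred on CEP250, whose highest folds were 3.04 and 2.93.

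Sequence near the summits was read in windows that reached 50 nt to each side of the summit on the spliced mRNA, on its own strand only. TGGAC, which contains GGAC and can also be part of a DRACH match, was in 17 of 193 windows in replicate 1 and 20 of 203 in replicate 2, 9.33% ± 0.738 (SD, n = 2), against 12.9% ± 0.0277 over all protein-coding genes. Tiles of the same length over the coding sequence of the same genes held it in 12.2% of cases, so the windows held it no more often than the coding sequence around them. GGAC was in 28.8% ± 1.83 of the windows, against 32.0% over all genes and 32.6% of the coding tiles of the same genes. DRACH was in 91.6% ± 2.80, against 87.3% over all genes and 90.2% of these coding tiles, the latter within 1 SD. ACACA, a form of the CA-rich sequences that proteins of this family are known to bind, was in 14.6% ± 0.191, against 11.0% ± 0.293 over all genes and 10.9% of the coding tiles of the same genes. The windows had 45.8% G and C, against 49.0% over all genes. A match of letters is a description and not a binding site, and RIP peaks do not mark single bases.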

How the data were processed

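Per the study's methods, Tophat2 mapped the paired-end reads to hg38 and MACS2 called peaks in each sample, while the submitters' processing notes name fastp, HISAT2 and MACS2. Versions and the library used as the caller's control are not given in the sources used here. The authors deposited 1 peak list for each of the 2 RIP replicates, with a fold enrichment (ratio), −log10 p, −log10 q, score and summit for each peak. Read depth is unknown, so counting error could not be given, and the lists hold only peaks above the caller's limit. Input values of 2 samples were not analysed here.

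Summits were placed in the exons of GENCODE release 44 without regard to strand. Peaks on scaffolds outside the 24 chromosomes (13 and 12) were left out. The canonical coding transcript gave mRNA lengths, regions, the stop codon window (200 nt to each side), and motif windows (50 nt to each side of the summit). Peaks overlapping by at least 1 bp were counted as shared. Sequences were read from the reference genome of the same build. The group and replicate of each sample came from its title. With 2 replicates and no control values, values were given as mean ± SD (n = 2) beside the same over all protein-coding genes, with no test.

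The genes, their roles, the 77 genes of other names (75 matched, the other 2 being older symbols of IFT25 and CEP20) and the motifs were chosen with earlier results of these data known. The rule for named genes was every IFT gene, and among CEP genes with peaks in both replicates the 10 with the most peaks, the 10 with the most peaks per kb and the 5 with the highest fold. Other CEP genes were named to account for the rest of the set, except 1 gene that is counted but not reported here by name or drawn apart. Alternatives were limits of q of at most 0.05 and p of at most 1e-05, other overlaps, windows, lengths and gene rules, and each replicate alone. Scripts were tested on simulated data. The tools were samtools 1.23.1, pandas 2.3.3, numpy 2.4.6, matplotlib 3.10.9 and scipy 1.17.1 under Python 3.11.15.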

Additional observations from a re-analysis of the deposited data

Results flagged for a closer look

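Summits inside CEP and IFT genes but in no exon were outside every count of the report. There were 9 in replicate 1, on CEP72 and IFT80 (2 each) and on CEP85, CEP120, CEP192, CEP350 and IFT52 (1 each), more than the 3 counts set as the floor. Of these, 3 overlapped a peak of replicate 2, on CEP85, CEP192 and IFT80, and 0 had a q of at most 0.05. Replicate 2 had 3 such summits, among them those on CEP192 and CEP295, of which 0 overlapped a peak of replicate 1. No input value was analysed here, so a level to set them against is missing.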

How the results depend on the processing

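The limits are those of the lists: with no depth and no input values a weak and a missing peak cannot be told apart, and each of the 2 replicates alone gives a value but no check of stability. No paired analysis was possible because no test between groups was made and the input samples, which share the replicate numbers, were not analysed here. Of 36 alternatives, 11 kept a value within 1 SD of the replicates (1.5 times for counts) and 25 did not, and of the latter most only keep fewer peaks or change what is counted. A q of at most 0.05 left 3 genes in both replicates in place of 25 and 14 peaks in place of 208.5 (mean of the replicates). It moved the share in coding sequence from 88.6% to 97.2%, the median peaks per kb from 1.23 to 0.314 and the median fold from 2.86 to 4.79, and the share of peaks with an overlap from 61.2% to 8.19% with the limit in both lists or 89.2% against all peaks of the other. A p of at most 1e-05 left 10 genes and 31 peaks. The overlapping share was 39.6% when 50% of both peaks had to overlap and 52.8% by summits within 100 nt. Peaks shared between the replicates gave 89.9% in coding sequence, 0.709 peaks per kb, a median fold of 3.10 and TGGAC in 8.09% of windows. The share in coding sequence was 91.4% with a stop codon window of 100 nt to each side and 93.4% with no such window. The median peaks per kb was 2.08 in coding sequence, 0.676 over the union of all exons, and 1.17 to 1.23 with 1 replicate left out. TGGAC was in 4.57% of windows that reached 25 nt to each side, in place of 9.33%, and in 19.7% with 100 nt. Without CEP350, CEP295 and CEP192, chosen after seeing the data, there were 124.5 peaks, 44.6% of them overlapping and 85.6% in coding sequence, with a median fold of 2.66. The other values with 1 replicate left out were 201 to 216 peaks, 60.2% to 62.2% overlapping, 88.1% to 89.2% in coding sequence, a median fold of 2.83 to 2.89 and TGGAC in 8.81% to 9.85%.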

Other observations

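Of 12 annotated pseudogenes and non-coding neighbours that carry a CEP or IFT name, CEP19P1, CEP57L1P1, CEP164P1, CEP170P1, IFT122P1, IFT122P2 and IFT122P3 had 0 exonic peaks in both replicates, as had CEP72-DT, CEP83-DT, CEP192-DT and IFT74-AS1. CEP250-AS1, which lies opposite CEP250, had 1 peak in each replicate, with its summit also in an exon of CEP250.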
